A study of Saccharomyces cerevisiae with 12 samples.

Results

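The comparison described here sets yeast cells without the nuclease Mre11 against cells without its cofactor Sae2, both treated with the drug VP16. It uses 4 of the 12 CC-seq libraries, chosen by their labels: the 2 pdr1mre11 libraries and the 2 pdr1sae2 libraries with VP16. CC-seq recovers DNA ends that stay covalently bound to a protein and gives the nucleotide and strand of each 5′ end, which is called a hit. All strains were of the BY4741 background, grew vegetatively, and carried the pdr1DBD-CYC8 construct, which lowers drug export and is called pdr1. The treated cultures received 1 mM VP16 (etoposide) for 4 h, and the untreated cultures received 2% DMSO for the same time. The pdr1 strain with MRE11 and SAE2 intact, treated in the same way, and the untreated cultures of each strain are quoted for reference. Each group held 2 samples labelled as biological replicates, and p-values measure the spread between these.

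Topoisomerase 2 (Top2) passes a DNA duplex through another by cutting both strands with a short stagger, and it stays linked to each 5′ end until the break is resealed. VP16 blocks the resealing step, so that the enzyme remains on the broken ends. Mre11 is the nuclease of the Mre11-Rad50-Xrs2 (MRX) complex, which can cut next to a protein-bound end and release it. Sae2, the yeast relative of human CtIP, stimulates that cutting.

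The pdr1sae2 libraries held 1097282 and 2444486 hits for replicates 1 and 2, and the pdr1mre11 libraries 2526342 and 3010542. The shallowest of these, pdr1sae2 replicate 1, also had the lowest share of hits 3′ of a cytosine, and the differences in base composition, strong positions and HUL4 are given with and without it. Watson and Crick hits were balanced over the nuclear genome in all 4 libraries. The labels were checked at the deleted genes. A stretch of 836 bp within MRE11 (chromosome XIII, 718851 to 719686) had 53 and 111 hits in pdr1sae2 and none in either pdr1mre11 library. A stretch of 133 bp within SAE2 (chromosome VII, 174103 to 174235) had none in either pdr1sae2 library and 19 and 27 in pdr1mre11. Both stretches are gaps in the hits of the strain without the gene, so their emptiness there is no independent test. The whole MRE11 frame had 197 and 405 hits in pdr1sae2 and 36 and 33 in pdr1mre11. The whole SAE2 frame did not separate the treated strains, with 90 and 162 hits against 177 and 232 (log2 ratio of shares 0.02, SE 0.19). Coordinates are those of the R64 assembly, and chromosome III was left out wherever annotation was used.

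Individual Top2 sites show what the strains have in common. A site here is a Watson position paired with the Crick position 3 bp further on, the geometry of the staggered cut. The 5 strongest sites of the treated pdr1 strain were strong in both mutants, and their sequences are shown because they carry the base preference that recurs below. Each is 30 bases of the Watson strand of R64 (RefSeq), 5′ to 3′. The capitals mark the base just 5′ of the cleaved bond on the Watson strand and, at the right, the base paired with its counterpart on the Crick strand, where a G stands for a cytosine on Crick.
RIC1-AFB1 (chr12:228591-228620): gaacatcaaaggCgtcgGtattgccgaatt
YNL050C-SFB2 (chr14:535088-535117): tttcgtactgatCcgatGacttgaaaatac
HEM25-CYK3 (chr4:248119-248148): aaaattctcgaaTggctGgtttggtggcca
HOS3-BEM3 (chr16:331840-331869): cagctcttcgacCatttGgtcaagaagtta
YLR162W-RRT15 (chr12:489962-489991): cttattcgtatcCatctAtattgtgtggag

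At the RIC1-AFB1 site, in a tandem intergenic region, Watson and Crick hits were 96 and 77 in pdr1sae2 replicate 1 and 161 and 204 in replicate 2. They were 177 and 74 in pdr1mre11 replicate 1 and 204 and 238 in replicate 2. The HEM25-CYK3 site, in a divergent region between a mitochondrial carrier gene and a cytokinesis gene, has a cytosine only on Crick. Its Watson share was 14.2% and 26.3% in pdr1sae2 and 39.5% and 42.4% in pdr1mre11, without overlap, with 35.2% and 23.5% in pdr1. The YLR162W-RRT15 site has its cytosine only on Watson and was hit almost wholly there, with 153 and 252 Watson against 9 and 1 Crick hits in pdr1sae2. In pdr1mre11 it had 244 and 309 Watson against 33 and 10 Crick hits. Its 40 bp surroundings occur in 3 copies in the genome, so its counts are uncertain.

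Other sites with the same imbalance are shown because they moved toward equal strands in pdr1mre11, and they were chosen after their values were seen.
MDM31-NVJ1 (chr8:490532-490561): aaatatcaggacCcaccCccttatgaagga
SOV1 (chr13:401653-401682): ttcttaataagaCcatcAtagggccagacg
NGL3-NAB6 (chr13:33976-34005): atttttggtcacCcttcCcctttcgttgcg
All 3 carry the cytosine on Watson only. The Watson share in pdr1sae2 and then pdr1mre11 was 94.8% and 96.7% against 80.8% and 89.6% at MDM31-NVJ1. This share was 84.2% and 89.3% against 59.1% and 64.4% at SOV1, and 88.3% and 89.7% against 76.7% and 68.8% at NGL3-NAB6. The groups did not overlap at any of these, which follows from how they were chosen and is no evidence of a difference. None passed a test across all sites.

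Strand balance was tested at every site with enough hits. Of 4396 sites, 0 (0%) differed in their Watson share between the strains by edgeR's quasi-likelihood fit (Benjamini-Hochberg), and 64 had an unadjusted p under 0.05. That is a smaller share than the 0.05 due without any difference, so the fit may be conservative here. With a replicate block 263 had such a p. No other tool was run for this test. On simulated counts with a log2 shift of 2 in the strand ratio, the same test recovered 41.5% of the changed sites. The simulated splits held counting error but no further spread between replicates, so recovery in the real libraries may be lower. Smaller shifts were not simulated.

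Summed over strong sites with a cytosine on 1 strand only, hits were split less by the cytosine in pdr1mre11. Among the 1000 strongest pdr1 sites, 425 had a cytosine 5′ of the bond on 1 strand only, a class chosen after values were seen. The cytosine strand held 77.8% and 74.7% of their hits in pdr1sae2 (Wilson 95% intervals 77.0 to 78.6 and 74.1 to 75.2). It held 71.0% and 66.8% in pdr1mre11 (intervals 70.5 to 71.5 and 66.3 to 67.2). The groups did not overlap, and the pdr1 libraries, at 74.9% and 77.1%, sat with pdr1sae2. Untreated libraries lay between 48.4% and 53.8%. The order was the same at the 100 strongest sites, with 81.4% and 78.5% against 71.6% and 69.0%, and at the 10000 strongest, with 76.8% and 74.7% against 72.3% and 67.8%. These sets are nested, so they are not separate evidence. Over all 1000 sites the strains overlapped in strand balance, an index that is higher where strands are more equal. It was 0.722 and 0.754 in pdr1sae2 and 0.736 and 0.825 in pdr1mre11 (exact two-sided permutation p = 0.667). With 2 libraries a side, an exact two-sided permutation test cannot give a p under 0.333, so no library value here can pass a threshold. The intervals cover counting error only.

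**Figure D1:**
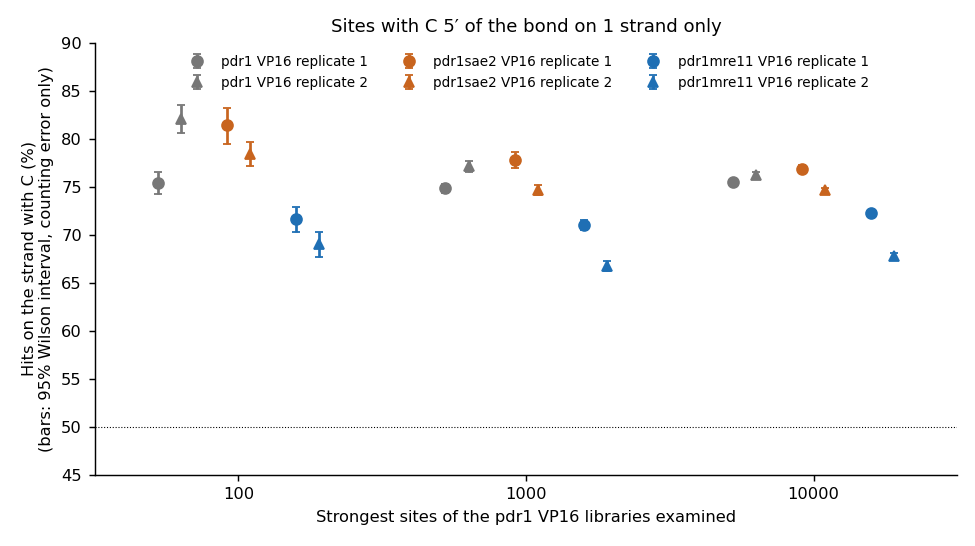
Percent of hits on the strand with the cytosine, at sites with a cytosine on 1 strand only, for the 100, 1000 and 10000 strongest pdr1 sites; each point is a library. At 1000 sites the pdr1mre11 points lie at 71.0% and 66.8%, under the pdr1sae2 points at 77.8% and 74.7%, and the dotted line marks 50%.

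The order of the 1000 strongest pdr1 sites by Watson share was compared between the mutants, apart from the size of the split. With replicates summed, the Watson share had r = 0.935 between the strains, across sites that are not independent replicates and that were ranked in the pdr1 strain. For single libraries, r was 0.878 and 0.924 between same-numbered libraries of the 2 strains, 0.811 and 0.767 between the other pairs across strains, and 0.803 between the replicates of either strain. The number of hits per site was less alike, with r of 0.623 to 0.846 between libraries of different strains, and 0.744 and 0.709 between the replicates of pdr1sae2 and of pdr1mre11. A Watson share above 0.9 or below 0.1 was found at 129 sites in pdr1sae2 and 88 in pdr1mre11, 79 of them in both strains and on the same strand. Of these 1000 sites 403 (40.3%) were higher in both pdr1mre11 libraries than in both pdr1sae2 libraries and 21 (2.1%) lower, with a median log2 ratio of shares of 0.40. Over all 58776 tested sites these shares were 39.3% and 4.05%. Tested sites needed at least 8 hits in at least 2 libraries, which a weak site could reach in the deeper pdr1mre11 libraries alone, so nothing is read from this comparison.

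The share of hits at positions ranked in pdr1 differed over most of the range, and not by the same amount in the 2 pdr1sae2 libraries. Positions ranked 1 to 100 in pdr1 held 0.396% and 0.468% of nuclear hits in pdr1sae2 and 0.435% and 0.432% in pdr1mre11. Positions ranked 101 to 1000 held 1.28% and 1.81% against 1.90% and 1.94%, and those ranked 1001 to 10000 held 4.44% and 6.78% against 7.81% and 7.74%. At all but the highest ranks both pdr1sae2 libraries were thus lower. Positions ranked 10001 to 100000 held 11.7% and 18.1% against 21.6% and 21.2%. Positions never hit in pdr1 held 57.7% and 40.1% against 30.0% and 32.1%. Beyond rank 100, replicate 1 of pdr1sae2 was the further from pdr1mre11 in each of these ranges. At the 1000 strongest positions together, the difference in share was 0.370 percentage points, and 0.0686 without that library.

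The base 5′ of the bond also differed. A cytosine stood there at 46.4% and 60.0% of hits in pdr1sae2 and at 65.0% and 65.1% in pdr1mre11, where the nuclear genome holds 19.1% cytosine. The pdr1 libraries, at 65.6% and 51.4%, spanned this difference, and without pdr1sae2 replicate 1 the difference in means was 5.05 percentage points in place of 11.9. Untreated libraries lay at 21.6% to 23.0%. At the 100 strongest positions all 4 libraries were alike, at 94.4% and 95.9% in pdr1sae2 and 94.3% and 95.4% in pdr1mre11. At positions not hit in pdr1 the cytosine share was 27.3% and 35.8% against 43.4% and 41.8%. In cytosine share the strains were thus apart at positions not hit in pdr1, most of all for pdr1sae2 replicate 1, and the source of this was not tested.

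**Figure D2:**
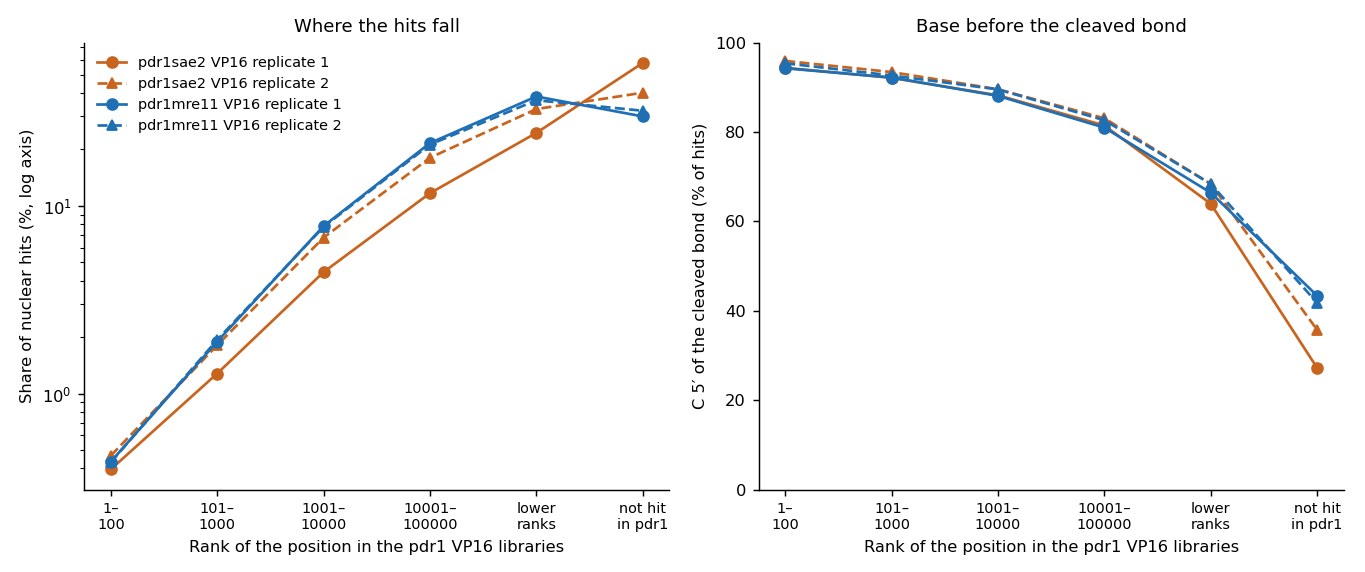
Percent of nuclear hits, and percent of hits with a cytosine 5′ of the bond, by the rank of the position in the treated pdr1 strain; each line or point is a library. Positions not hit in pdr1 hold 57.7% and 40.1% of pdr1sae2 hits and 30.0% and 32.1% of pdr1mre11 hits.

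The overall level of protein-linked DNA was compared with the spike-in factor of each group. Calibrated nuclear signal was 3.55 and 3.52 in pdr1sae2 and 7.55 and 7.53 in pdr1mre11, a ratio of 2.13. Replicates of a group share 1 factor, so their closeness holds no calibration error and no test was made. The ratio was unequal over the genome, at 2.54 for divergent intergenic regions, 2.43 for tandem, 2.03 for convergent and 1.96 for reading frames. Divergent regions hold the promoters of both neighbouring genes, tandem regions that of 1 gene, and convergent regions none. With the untreated signal of each strain subtracted, the ratio was 2.81 for the whole nuclear genome, 3.10 for divergent regions, 2.93 for tandem regions, 2.72 for reading frames and 2.46 for convergent regions, so the last classes changed places.

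The share of hits per region does not use the spike-in, and by it divergent and tandem regions again stood above the other classes. With 1 factor per group, the calibrated class ratios are shares of the same hits times a constant, so this order is no separate evidence. Convergent regions and reading frames stood in the reverse order when medians of regions were taken. Of 1473 divergent regions 880 (59.7%) were higher in both pdr1mre11 libraries than in both pdr1sae2 libraries and 32 (2.17%) lower, with a median log2 ratio of 0.29. Tandem regions had 1158 of 2707 (42.8%) higher and 142 (5.25%) lower, median 0.20. Reading frames had 631 of 5703 (11.1%) higher and 1896 (33.2%) lower, median -0.12, and convergent regions 152 of 1431 (10.6%) higher and 426 (29.8%) lower, median -0.18. Over all 11314 regions the background was 24.9% higher and 22.1% lower. Leaving out any 1 of the 4 libraries kept the sign of each class median, with ranges of 0.24 to 0.35 for divergent, 0.14 to 0.30 for tandem and -0.29 to -0.08 for convergent regions. For reading frames, where the same ratio of shares had a median of -0.12, it was -0.05 without pdr1mre11 replicate 1 and -0.19 without pdr1mre11 replicate 2. The tandem median of 0.22 on this scale fell to 0.14 without pdr1mre11 replicate 1, and the convergent median of -0.16 moved to -0.29 without that library and to -0.08 without pdr1mre11 replicate 2.

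**Figure D3:**
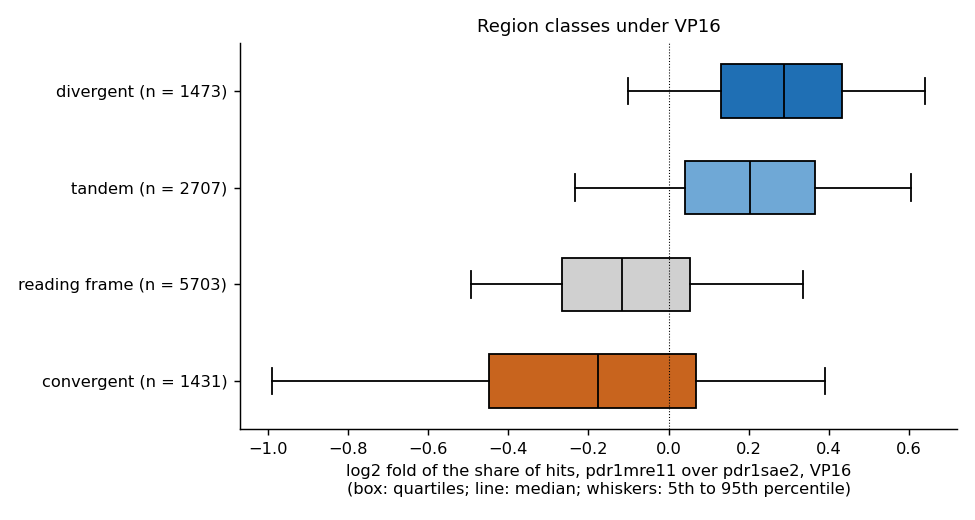
Log2 ratio of pdr1mre11 to pdr1sae2 under VP16 for regions of each class, from the fit over 11314 regions, with boxes for quartiles, a line at the median and whiskers to outer percentiles. Medians run from 0.29 in divergent regions through 0.20 in tandem regions and -0.12 in reading frames to -0.18 in convergent regions.

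Among reading frames the median was lowest for long ones. The median log2 ratio was -0.06 for frames under 1 kb, -0.13 for 1 to 4 kb and -0.26 for the 179 frames of at least 4 kb, of which 101 (56.4%) were lower in both pdr1mre11 libraries and 4 higher. Relative to the library mean, divergent regions had a hit density of 1.42 and 1.46 in pdr1sae2 and 1.76 and 1.67 in pdr1mre11. Treated pdr1 libraries stood at 1.67 and 1.43, replicate 1 level with the lower pdr1mre11 library and replicate 2 with the pdr1sae2 libraries. Untreated cells already differed in the same direction, with 1.07 and 1.07 in pdr1sae2 and 1.18 and 1.16 in pdr1mre11. With the untreated difference between the strains taken off, the median log2 ratio was 0.15 for divergent and 0.09 for tandem regions. It was -0.06 for reading frames and -0.24 for convergent regions, so part of the class pattern was present without VP16, except in convergent regions. By length of the frame, shortest first, it was -0.05, -0.06 and -0.14, so part of the difference in long frames was also present without VP16. In the 200 bp before start codons, density relative to the start of the reading frame stood at a log2 of 0.97 and 1.15 in pdr1sae2 and 1.51 and 1.32 in pdr1mre11. The intergenic excess, the log2 density of intergenic over reading-frame DNA, was 0.73 and 0.79 in pdr1sae2 against 1.17 and 0.94 in pdr1mre11 (difference 0.30, exact permutation p = 0.333, the smallest possible). Without pdr1mre11 replicate 1 the difference was 0.18. The treated pdr1 libraries spanned most of the gap between the strains in both measures. They stood at 1.10 and 0.75 for the intergenic excess and at 1.51 and 1.10 for the density before start codons.

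Most gene lists had higher medians in the regions 5′ of the genes than in their reading frames. For reference, 59.7% of all divergent and 42.8% of all tandem regions, and 11.1% of all frames, were higher in both pdr1mre11 libraries, and 33.2% of all frames were lower in both. Ribosomal protein genes, among the most transcribed in growing yeast, had 95 of 131 5′ regions (72.5%) higher in both pdr1mre11 libraries and 1 lower, median log2 ratio 0.41, while 57 of their 136 frames were lower and 6 higher, median -0.22. RPL16A-CSM2 stood at 0.85 and RPL34B-MMF1 at 0.73, and the frame of RPL23A at -0.90. With the untreated difference between the strains taken off, RPL16A-CSM2 stood at 0.17 (SE 0.31). The medians of the ribosomal list were then 0.31 in 5′ regions and -0.20 in frames. The RPL23A value rested largely on pdr1sae2 replicate 1, at 130 HPM (scaled hits, defined below). Replicate 2 of pdr1sae2 stood at 52.0, and pdr1mre11 at 49.3 and 42.9. Glycolytic genes had medians close to each other, 0.23 in frames, with 7 of 14 higher in both pdr1mre11 libraries and 0 lower, and 0.27 in 5′ regions. GPM1, phosphoglycerate mutase, stood at 0.43 in its frame and its 5′ region, GPM1-NNR2, at 0.64. None of these passed in the fit of all 12 libraries, and with only the 4 libraries, where 0.205% of all regions passed, 3 ribosomal 5′ regions did, RPL16A-CSM2 among them.

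Lists of DNA repair and drug response genes had medians near those of all frames and all promoter-containing regions. The 19 MRX and end-processing genes had a median of -0.11 in frames and 0.26 in 5′ regions, 17 checkpoint genes -0.13 and 0.26, and 10 drug export genes -0.13 and 0.30. The 16 topoisomerase and adduct removal genes had -0.00 and 0.19, and the histone genes 0.03 and 0.25. The 5′ region of PDR5, a drug efflux pump, had a log2 ratio of 0.45, and that of TDP1, whose product removes trapped topoisomerase from DNA ends, 0.74. PDR1 itself had 187 and 199 HPM (hits in 1000000 after TMM scaling) in pdr1sae2 and 194 and 188 in pdr1mre11, which overlap. Apart from MRE11, none of these passed the test.

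Of 11314 regions, 1 (0.00884%) differed between the strains by edgeR's quasi-likelihood fit (Benjamini-Hochberg), and it was the deleted MRE11 itself. This fit compares shares of each library, and with spike-in library sizes in their place 10498 regions were called, 10497 of them higher in pdr1mre11, in a test that leaves out the error of the calibration. MRE11 had 181 and 174 HPM in pdr1sae2 and 14.4 and 11.6 in pdr1mre11 (log2 ratio -3.77, SE 0.19). On simulated counts the fit of shares recovered 82% of regions changed 2-fold and 76% of those changed 0.5-fold, with 6 false calls. It recovered only 20% at 1.5-fold and 14% at 0.67-fold, so single regions with differences of that size could be missed. At an unadjusted p under 0.05 there were 925 regions (8.18%) higher in pdr1mre11 and 685 (6.05%) lower. A fit of only the 4 libraries called 23 of 11231 regions (0.205%), 12 higher, of which 8 were tandem and 2 divergent, and 11 lower, of which 10 were reading frames. Among regions higher in pdr1mre11 with the smallest p, none of which passed in the fit of all 12 libraries, was COX8-VPS33, a tandem region upstream of COX8, which encodes a cytochrome c oxidase subunit, with 56.1 and 73.9 HPM in pdr1sae2 and 133 and 134 in pdr1mre11 (log2 ratio 1.01). HNT1-YDL124W, a divergent region, had 89.1 and 109 HPM against 170 and 180. YLR379W-A-CSR1 had 122 and 110 HPM against 182 and 249. Treated pdr1 had 131 and 80.2 HPM at COX8-VPS33, 140 and 105 at HNT1-YDL124W, and 179 and 126 at YLR379W-A-CSR1. All 3 passed in the fit of only the 4 libraries, with adjusted p of 0.0022, 0.0167 and 0.0022 in the order named (edgeR's quasi-likelihood fit, Benjamini-Hochberg).

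HUL4, a ubiquitin ligase gene on chromosome X (500713 to 503391), had the lowest adjusted p among the regions lower in pdr1mre11 other than MRE11, and its difference rested on 1 library. It had 400 and 173 HPM in pdr1sae2 and 98.3 and 119 in pdr1mre11 (log2 ratio -1.36, adjusted p = 0.0645 by edgeR's quasi-likelihood fit (Benjamini-Hochberg)). A block of the gene from 502701 to 503100 stood at 8.44 times the library mean in pdr1sae2 replicate 1, against 0.90 in replicate 2 and 0.22 and 0.35 in pdr1mre11. Of its 314 hits 305 were on Crick, at 309 strand positions with at most 2 hits each, and 16.2% had the cytosine. The call changed with the fit: adjusted p was 0.0017 with the 6 VP16 libraries and 3.0e-09 with only the 4 libraries (edgeR's quasi-likelihood fit, Benjamini-Hochberg). Without pdr1sae2 replicate 1 the log2 ratio of shares was -0.67.

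Hits next to the deleted genes differed in each strain. In the 1500 bp before the SAE2 start codon (chromosome VII, 174323 to 175822), toward the splicing gene BUD13, density was 1.98 and 1.76 times the library mean in pdr1sae2, 1.14 and 1.17 in pdr1mre11 and 1.20 and 1.32 in pdr1. In the 1500 bp after the MRE11 stop codon (chromosome XIII, 717075 to 718574), toward the deubiquitinase gene UBP8, it was 1.15 and 1.05 in pdr1mre11, 0.82 and 0.76 in pdr1sae2 and 0.56 and 0.62 in pdr1. Each strain was thus the higher one beside its own deleted gene, by 1.61-fold and 1.40-fold. In untreated cells these ratios were 0.945 and 0.765. The other sides of the genes did not repeat it: after the SAE2 stop codon pdr1sae2 had 1.23 and 1.14 against 1.66 and 1.33. BUD13 had 141 and 122 HPM in pdr1sae2 and 66.6 and 76.7 in pdr1mre11 (log2 ratio -0.86). BUD13 did not pass in the fit of all 12 libraries and passed with only the 4 libraries (adjusted p = 0.0163, edgeR's quasi-likelihood fit, Benjamini-Hochberg), as did BUD13-XRN1 (0.0433). The sequence of the replaced loci was not used here, and its part in this was not tested.

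**Figure D4:**
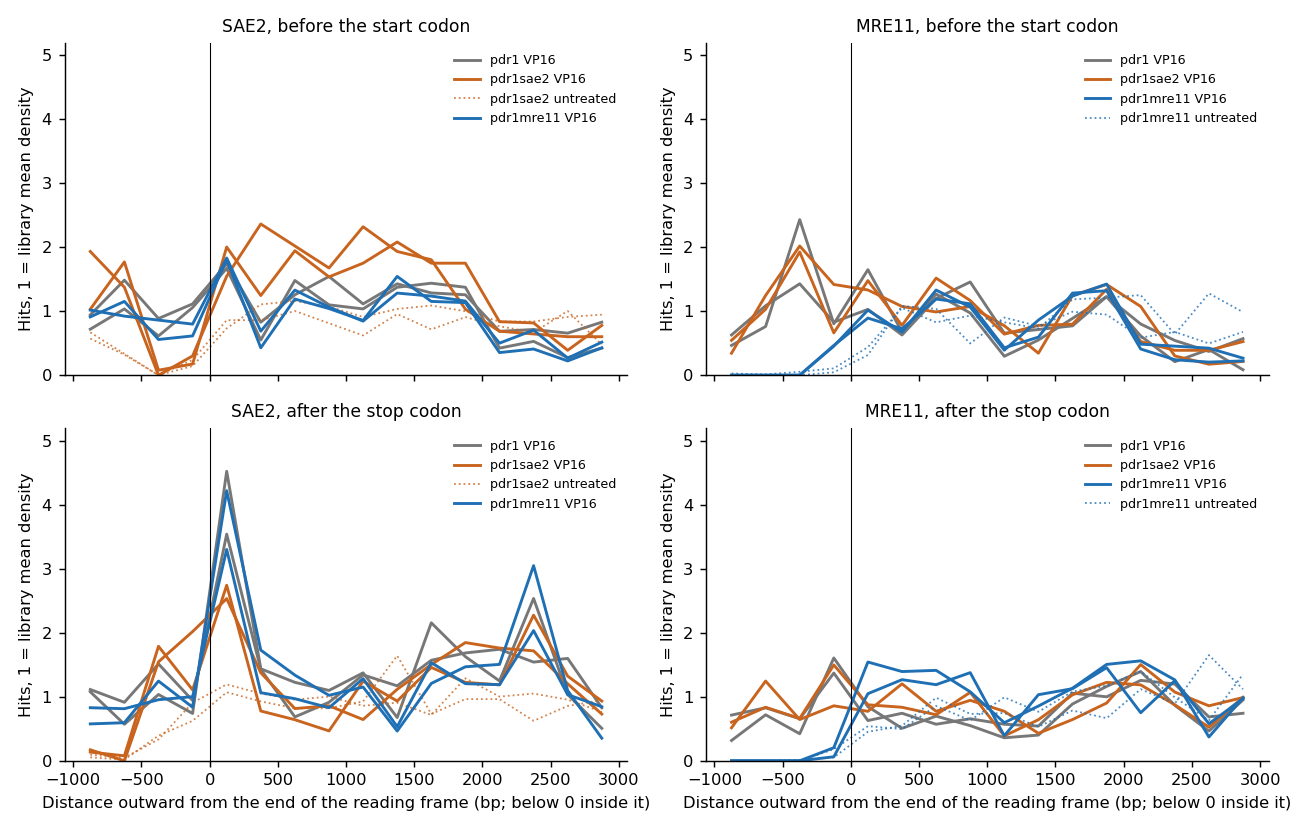
Hit density relative to the library mean around SAE2 and MRE11, by distance from the start or stop codon in base pairs; solid lines are libraries with VP16 and dotted lines untreated libraries of the strain without the gene. Before the SAE2 start codon pdr1sae2 stands at 1.98 and 1.76 over the first 1500 bp, and after the MRE11 stop codon pdr1mre11 stands at 1.15 and 1.05.

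Mitochondrial DNA took a smaller share of hits in pdr1mre11. This share of all hits was 0.543% and 1.49% in pdr1sae2 and 0.173% and 0.261% in pdr1mre11, without overlap but with a wide spread in pdr1sae2 (mean 1.02% ± 0.669 against 0.217% ± 0.062, SD, n = 2 each). The exact two-sided permutation p was 0.333, the smallest possible, and 0.579 after Benjamini-Hochberg adjustment over 33 tests. Untreated libraries lay at 3.22% to 7.54%, and treated pdr1 at 0.549% and 3.04%. After calibration the groups overlapped, at 0.0197 and 0.0541 against 0.0133 and 0.0201, with a ratio of means of 0.452. Replicate 2 had the larger mitochondrial share in all 6 groups, and within each replicate number the calibrated value was lower in pdr1mre11. The mean share was 4.68-fold higher in pdr1sae2, beside a calibrated nuclear ratio of 2.13 the other way. Without pdr1sae2 replicate 2 the difference in share was -0.326 percentage points in place of -0.800.

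The lower share covered the whole mitochondrial molecule. All 86 tiles of 1 kb were lower in both pdr1mre11 libraries, as were 22.7% of all 11772 tiles, with log2 ratios of -3.92 to -1.53 and a median of -2.32. By edgeR's quasi-likelihood fit (Benjamini-Hochberg) none passed, with 0.230 the smallest adjusted p, all 86 had an unadjusted p under 0.05, and 84 passed with only the 4 libraries fitted, where 0.808% of all tiles passed. Each tile carries the mitochondrial share of its library, so the 86 tiles are not independent tests of the difference. COX1, a cytochrome c oxidase gene, had 1386 and 4016 hits in 1000000 of the library in pdr1sae2 and 505 and 858 in pdr1mre11. VAR1, a ribosomal protein gene, had 34.6 and 91.6 against 6.33 and 6.31, so that the size of the difference depended on pdr1sae2 replicate 2 in both genes. Mitochondrial hits had the cytosine at 10.8% and 11.3% in pdr1sae2 and 11.6% and 12.5% in pdr1mre11, near the 8.55% of that genome and far from the nuclear values.

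**Figure D5:**
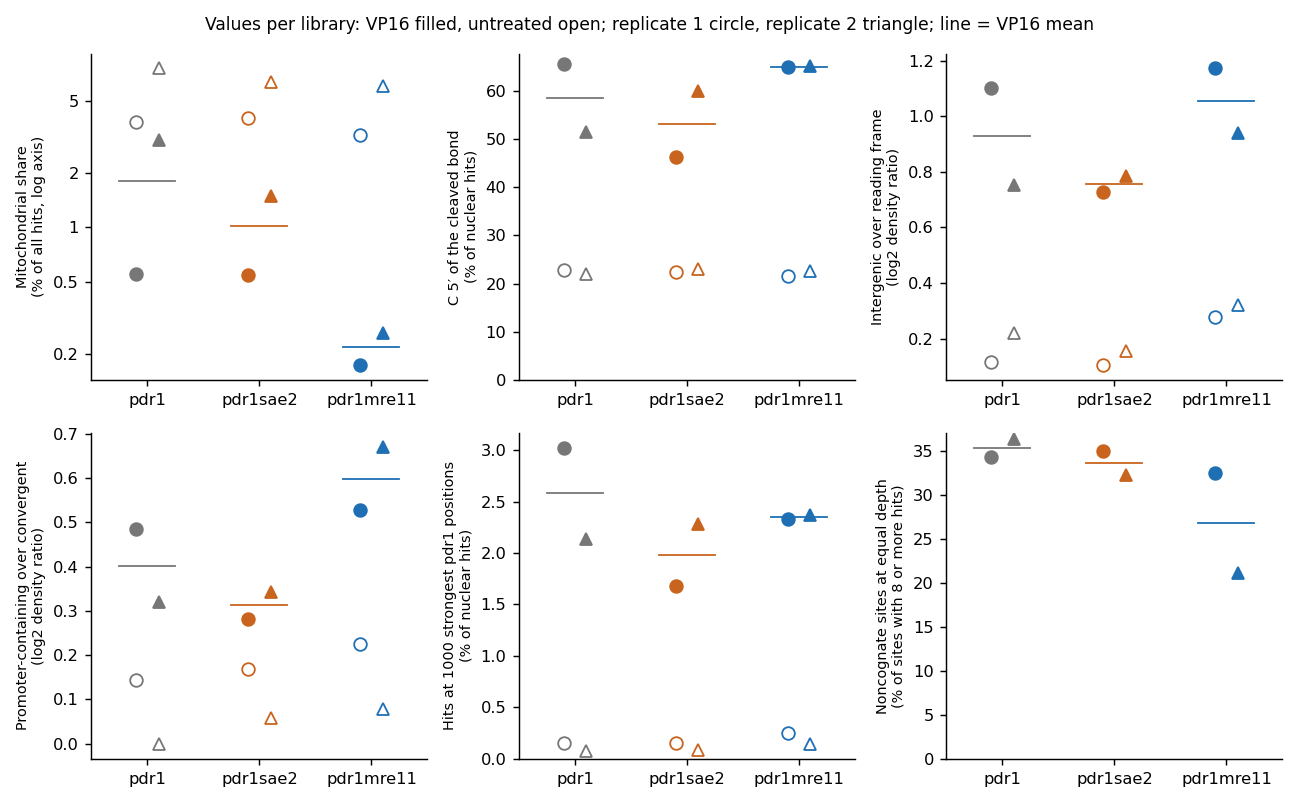
Values per library for 6 measures by strain, filled points with VP16 and open points untreated, circles for replicate 1, triangles for replicate 2 and a line at the VP16 mean. The mitochondrial share lies at 0.543% and 1.49% in pdr1sae2 and 0.173% and 0.261% in pdr1mre11, and the intergenic excess at 0.73 and 0.79 against 1.17 and 0.94 on the log2 scale.

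Other nuclear features were compared by library. The log2 density beside tRNA genes did not overlap, at 0.36 and 0.30 in pdr1sae2 and 0.63 and 0.45 in pdr1mre11. Treated pdr1 stood at 0.46 and 0.27. At replication origins the groups overlapped (0.50 and 0.48 against 0.68 and 0.34). Chromosome ends were at -0.23 and -0.29 against -0.35 and -0.35. Sites with unequal strands by an exact binomial test, called noncognate, made up 35.1% and 32.3% in pdr1sae2 and 32.5% and 21.2% in pdr1mre11 after thinning to equal nuclear hits (exact permutation p = 0.667). The thinned libraries still held 4727 and 10773 sites of at least 8 hits against 14892 and 15168, so the power of the test per site differed between them. Only pdr1mre11 replicate 2 was low. At the 3069 sites that reached 8 hits in all 4 thinned libraries, the noncognate share was 35.3% and 39.4% against 43.5% and 33.3%, so the groups overlapped there too, with median hits per site of 12 and 17 against 20 and 21. Watson and Crick hits at the 3 bp offset had r = 0.409 and 0.455 in pdr1sae2 and 0.488 and 0.571 in pdr1mre11 after the same thinning, across sites that are not independent replicates. Hits at sites hit on both strands made up 17.9% and 31.7% against 38.7% and 43.1%, without overlap. For these last 2 measures treated pdr1 had r = 0.486 and 0.433, and 37.8% and 23.2%.

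In the fit of all 12 libraries, single sites and tiles gave calls only in MRE11. Of 58776 sites 2 (0.0034%) passed edgeR's quasi-likelihood fit (Benjamini-Hochberg), at chromosome XIII 720377 with 11 and 34 hits in pdr1sae2 and none in pdr1mre11, and at 720225 with 10 and 22 and none. DESeq2 called 0, with 115 at an unadjusted p under 0.05, against 2768 in edgeR. Of 11772 tiles of 1 kb 2 (0.017%) passed, both over MRE11. The first, from 719001 to 720000, had 64 and 135 hits in pdr1sae2 and none in either pdr1mre11 library, which is at least 52.3-fold lower with a floor of 3 counts per library. With only the 4 libraries 95 tiles (0.808%) passed, 84 of them mitochondrial and 11 nuclear.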

How the data were processed

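Each deposited map holds raw counts, the hits at every nucleotide of each strand. The authors aligned reads with Bowtie2 (submitters' processing notes; version not given in the sources used here) to Cer3H4L2, the Cer3 build with changes on chromosome III. The deposited scaling factor is a ratio from a human DNA spike-in, 1 per group. The 6 pooled maps were not used. Reads carried no molecular identifiers, so intervals cover counting error only. Stretches of at least 100 bases without a hit in any library (537901 bp) were masked. Regions were reading frames and the intergenic DNA between them with at least 50 unmasked bases.

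Regions, 1 kb tiles and sites of at least 8 hits in at least 2 libraries were fitted over all 12 libraries as 6 group means with edgeR 4.0.16 (quasi-likelihood test, TMM, filterByExpr for regions, R 4.3.3), and called at a Benjamini-Hochberg adjusted p under 0.05. Library values were compared by exact two-sided permutation tests (scipy 1.17.1). Scripts were tested on simulated data. Regions named are the called ones, those with the smallest p in each direction, listed genes and deleted genes with their neighbours. Members and lists were chosen with earlier results of these data known. Same-numbered libraries deviated together with r = 0.131, and as this was not so for every pair of groups (-0.213 to 0.409), the numbers were not taken as pairs. Other values did go with the number. Watson share at the strongest pdr1 sites had r of 0.878 and 0.924 between same-numbered libraries against 0.803 between replicates. Replicate 2 had the larger mitochondrial share in all 6 groups. With a replicate block 109 tiles were called in place of 2, so the main fit may miss differences. Alternatives covered scaling, count minimums, samples fitted, a replicate block, DESeq2 1.42.0 and leaving out each library.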

Additional observations from a re-analysis of the deposited data

Results flagged for a closer look

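The VP16 response of the SAE2 reading frame differed between the strains by -1.86 on the log2 scale (pdr1mre11 minus pdr1sae2), the 1 region of 11314 (0.00884%) that passed an interaction test, adjusted p = 0.0125 in edgeR's quasi-likelihood fit (Benjamini-Hochberg). The frame had 26.8 and 34.5 HPM (hits in 1000000 after TMM scaling) in untreated pdr1sae2 and 82.7 and 69.6 with VP16, against 71.0 and 81.7 in pdr1mre11 with VP16. SAE2 is the gene deleted in pdr1sae2, and the hits that remain lie outside the stretch of 133 bp from 174103 to 174235. The call was lost without pdr1sae2 replicate 1 and without pdr1mre11 replicate 1.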

How the results depend on the processing

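Of 11314 regions 1 was called. The count became 10498 with spike-in library sizes (10497 higher in pdr1mre11, median log2 ratio 1.07), 23 with only the 4 libraries, 2 with the 6 VP16 libraries, 2 with thinned libraries and 0 with a minimum of 50 hits in each library. Leaving out a library gave 1 to 9 calls, 9 without pdr1sae2 replicate 2, and 0 to 2 for the interaction test. Tiles went from 2 to 95 with the 4 libraries and to 0 with tiles of 5 kb, and to 2 to 3 with a library left out. Sites went from 2 to 0 with the 4 libraries (3556 at an unadjusted p under 0.05) and to 0 with DESeq2, and to 0 to 3 with a library left out. Strand balance stayed at 0 calls with a minimum of 20 hits (7 unadjusted), with the 6 VP16 libraries (77 unadjusted) and with any library left out. With the replicate block the calls were 2 regions (MRE11 and HUL4, the latter at an adjusted p of 0.0421 in edgeR), 1 interaction, 109 tiles (25 higher, 84 lower), 3 sites and 1 strand balance (263 unadjusted). The calibrated ratio was 2.81 with untreated signal subtracted. With a library left out it was 2.12 to 2.14, but replicates share 1 factor, so this could hardly move it and says nothing of the calibration error. Signs reversed with a library left out for the nuclear Watson share (-0.0354 to 0.0498), the mitochondrial Watson share (-0.112 to 1.61), the strand balance of the 1000 strongest sites (-0.00136 to 0.0876) and replication origins (-0.147 to 0.188). Their causes were not tested. Alternatives for the cytosine strand, class medians, HUL4 and the deleted genes were chosen after seeing the data.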
